A study of Macaca fascicularis with 12 samples.

Results

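The tumour necrosis factor (TNF) superfamily was followed across plaque size in the iliac artery of 12 monkeys. A probe was taken as a member when the platform's annotation gave it a single gene symbol that began with TNFSF or TNFRSF, or that read TNF, LTA, LTB, CD40 or FAS. This gave 35 of 18160 gene symbols, read by 48 of the 53877 probes tested. Of these, 18 read 13 ligand genes, 28 read 20 receptor genes, and 2 read TNFRSF10A-DT and TNFRSF14-AS1, which are transcripts named after a neighbouring receptor gene and are counted apart from it. All 48 probes had a value on every array. Among the genes, 11 had 2 probes and TNFRSF9 had 3. Probes of 1 gene are numbered here from the brightest down. A further 2 probes of the family carried several symbols, so TNFSF13 and TNFRSF6B were not analysed here.

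The ligands of this family are mostly trimeric proteins of the cell membrane, many of which are also shed or secreted. Their receptors carry cysteine-rich repeats outside the cell. Some hold a death domain that can recruit caspases, while others bind TRAF adaptors and switch on NF-kappaB. Decoy receptors bind ligand without a full signalling tail. In atherosclerotic arteries the family is best known for inflammatory signals between macrophages, lymphocytes, endothelium and smooth muscle.

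The animals were female cynomolgus monkeys (Macaca fascicularis) aged over 20 years. All had eaten a high fat diet for 8 years, had been without ovaries for 4 years and had received no treatment, so the series has no group on another diet or with ovaries. Arteries were grouped by measured plaque area. The small group held 4 animals, 2 with no plaque and the others with 0.041 and 0.113 mm2; the medium group held 5 with 0.3 to 0.542 mm2; the large group held 3 with 0.61 to 1.003 mm2. Each artery biopsy gave 1 human CodeLink array, so replicates were separate animals. The biopsies were arterial tissue and not plaque alone, and in such bulk tissue fewer cells of a type and less RNA per cell cannot be told apart.

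Array medians lay between 1.00 and 1.01 intensity units, so a log2 intensity of 0 is about the median probe of an array. Arrays correlated with each other at 0.918 to 0.972 over all probes. Values were set to at least -3.17 on the log2 scale; 21 of the 576 member values sat at that floor, on 12 probes, and a difference involving them depends on where the floor is set. A mean below the array median was found for 22 of the 48 probes. Levels of members are therefore compared between animals for 1 probe and not between probes, because human probes can match the monkey transcript to different degrees. Brightness serves to order, choose and filter probes. The marker sums below add the intensities of several probes, so the brighter ones weigh more in them.

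Most of the family did not pass a test between the 3 plaque groups. A few members were far higher in medium plaque, and some of them also in large plaque, than in small. Between medium and small plaque, 6 of the 48 probes rose and none fell at a limma adjusted p under 0.05, the threshold for a call. They were both probes of TNFSF13B, the brightest probes of TNFSF15, TNFSF8 and TNFRSF21, and TNFRSF10A-DT. Over all probes tested, 1.97% rose and 1.17% fell in that comparison, 3.14% in all. Between large and small plaque, 3 of the 48 rose and none fell, against 0.948% of all probes higher and 0.197% lower, 1.15% in all: TNFSF13B, TNFSF15 and TNFRSF21, each by its brightest probe. The median member differed from small by 0.05 in medium and by 0.10 in large plaque on the log2 scale, where the median of all probes was -0.09 and -0.10. Both comparisons share the 4 small arteries.

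**Figure D1:**
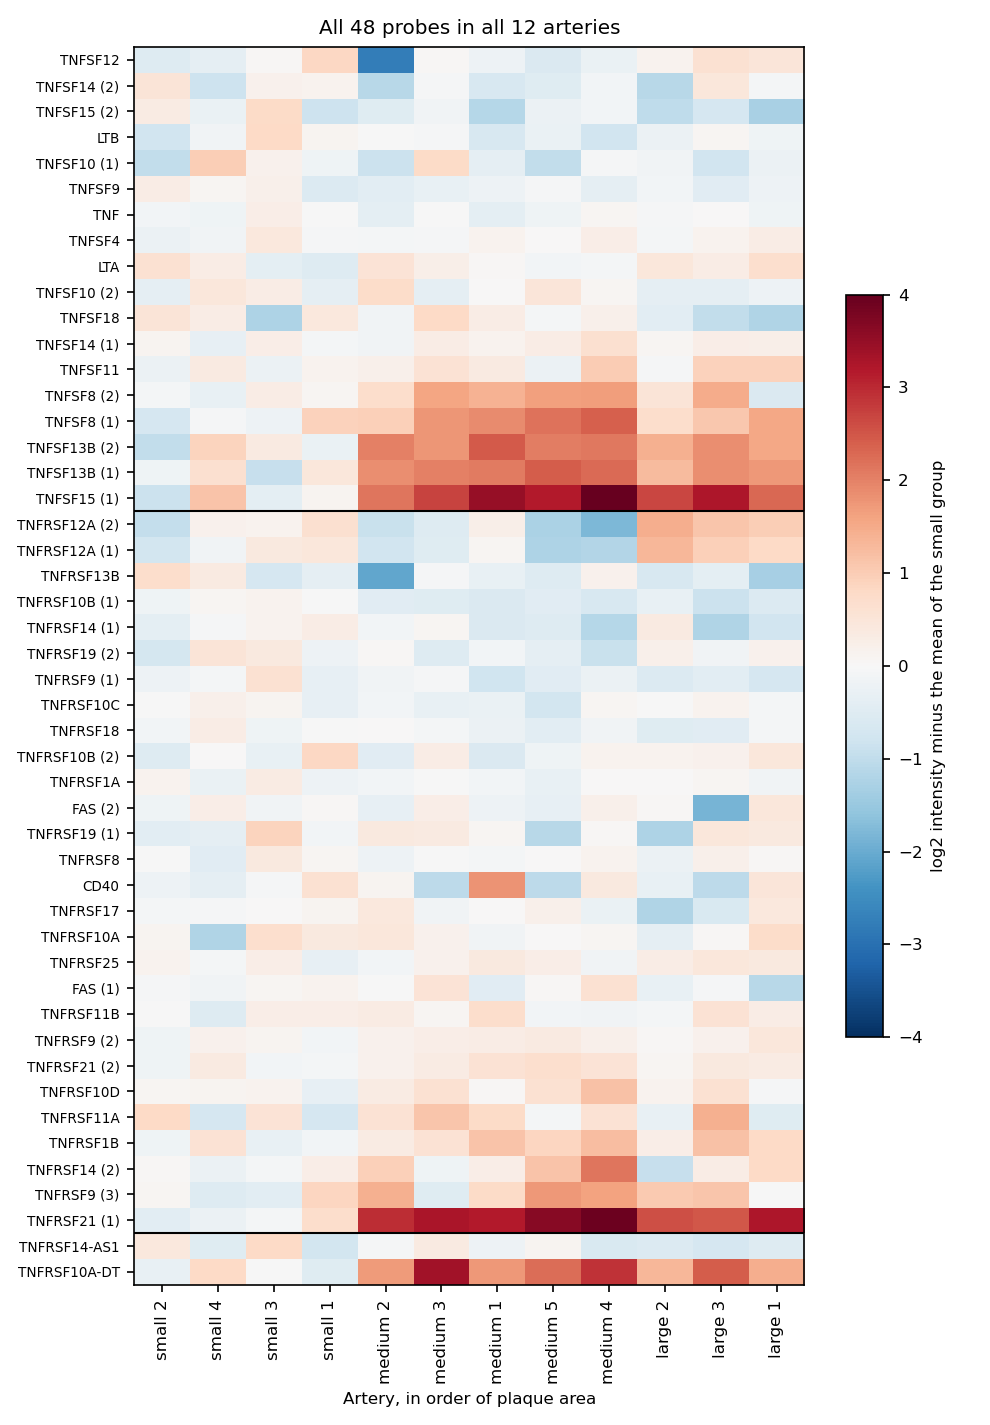
Log2 intensity minus the mean of the small group, by colour, for the 48 probes (rows; ligands above, receptors in the middle, the transcripts counted apart at the bottom) in the 12 arteries (columns, in order of plaque area). The red cells to the right of the 4 small arteries lie mainly in the rows of TNFSF8, TNFSF13B, TNFSF15, TNFRSF21 and TNFRSF10A-DT, while most other rows stay pale.

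Ligands held most of the probes that passed the test. Of the 18 ligand probes 4 rose in medium plaque (22.2%) and 2 in large plaque (11.1%). Of the 28 receptor probes 1 rose in each (3.57%), beside 1.97% and 0.948% of all probes. The ligand probes in medium plaque include both probes of TNFSF13B. By brightest probe, 3 of 13 ligand genes and 1 of 20 receptor genes rose in medium plaque, and 2 and 1 in large plaque. The median ligand probe was 0.16 above small in medium and 0.15 above it in large plaque. For receptor probes these medians were -0.0017 and 0.07. Whether ligands and receptors differed in this was not tested.

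**Figure D2:**
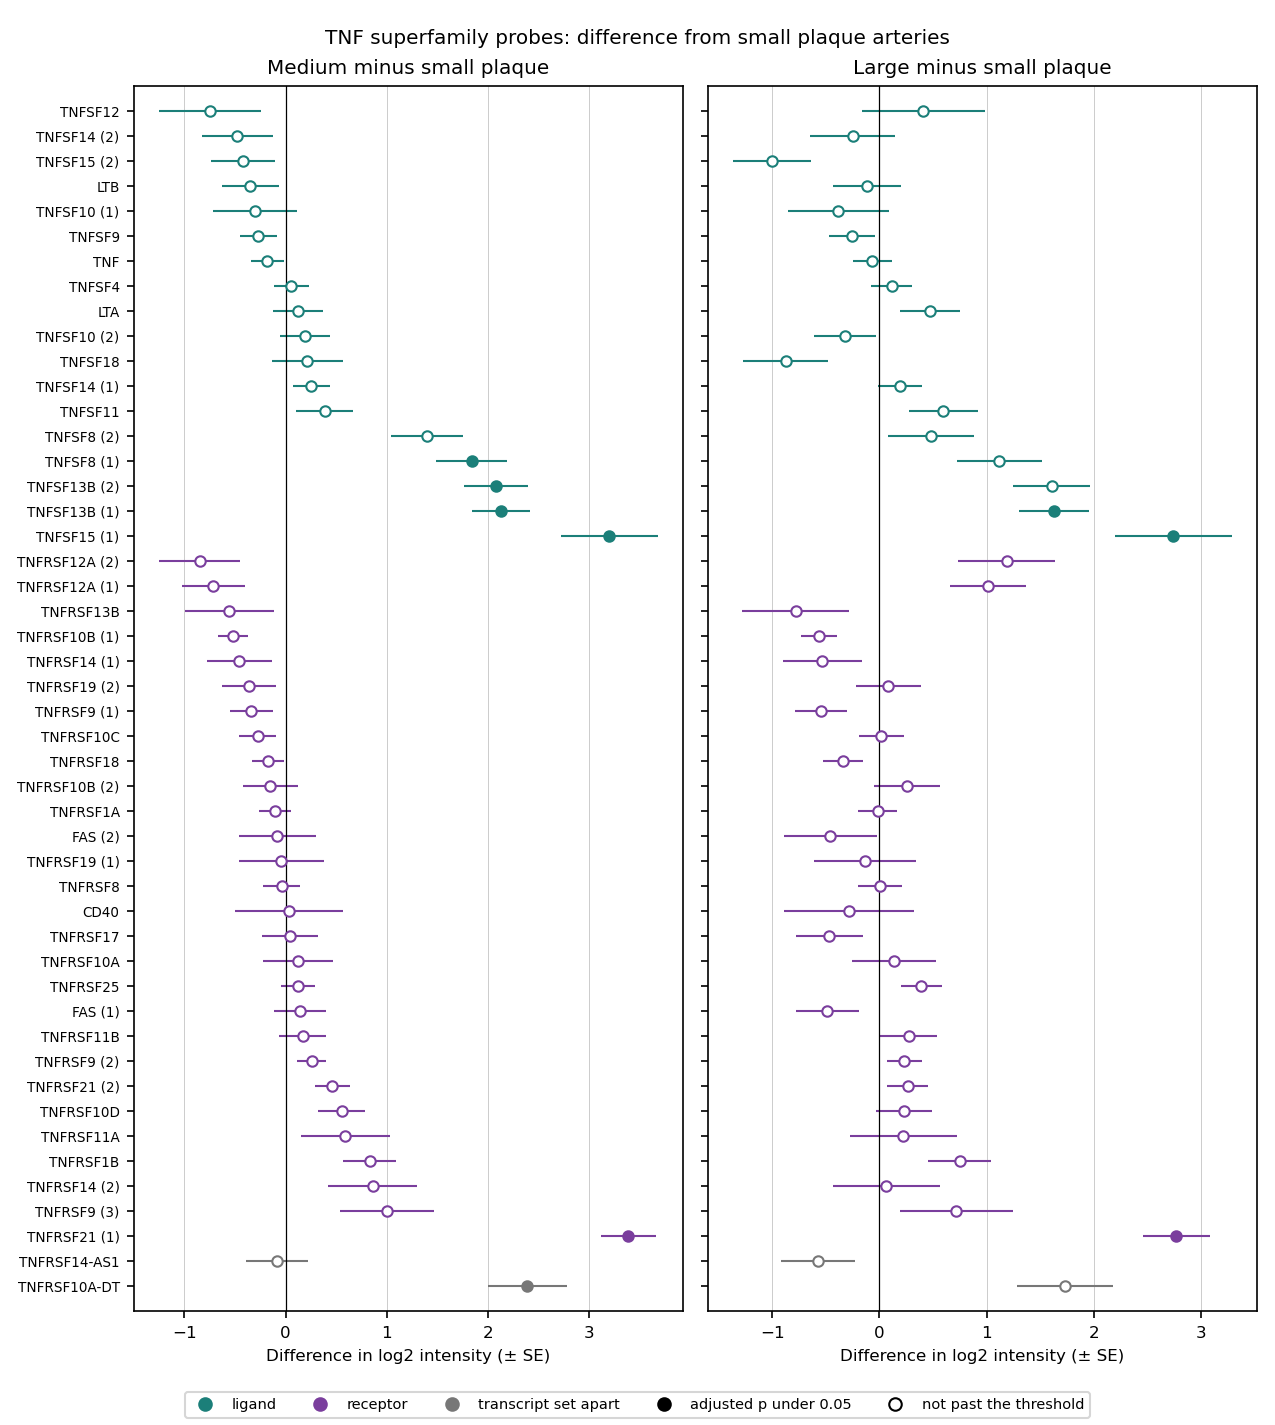
Difference in log2 intensity from the small group (± SE of the limma fit) for each of the 48 probes, in medium plaque (left) and large plaque (right). Filled points passed an adjusted p of 0.05: 6 probes on the left and 3 on the right, all to the right of 0. The open points lie on both sides of 0, from -0.85 to 1.40 on the left and from -1.0 to 1.73 on the right.

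TNFSF13B encodes BAFF, a survival factor for B cells that myeloid cells release. Its brightest probe (355070) gave log2 intensities of 3.87, 3.24, 2.51 and 4.05 in the small arteries, 5.48, 5.29, 5.44, 5.68 and 5.83 in the medium ones, and 5.15, 4.70 and 5.28 in the large ones, in replicate order. All 8 arteries of the medium and large groups lay above all 4 small ones. The difference from small was 2.13 ± 0.29 (SE) in medium plaque, or 4.37-fold (limma adjusted p = 0.00245), and 1.63 ± 0.32 in large plaque, or 3.09-fold (adjusted p = 0.0368).

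The other TNFSF13B probe (330101) is dim but had the same order of groups. It read -2.44, -3.17, -1.82 and -1.29 in small, 0.28, -0.18, -0.43, -0.08 and -0.12 in medium, and -0.62, -0.77 and -0.33 in large arteries, with small replicate 2 at the floor. Again no small artery reached the lowest of the others. The difference was 2.08 ± 0.32 in medium plaque (4.22-fold, limma adjusted p = 0.0049), and in large plaque it was 1.61 ± 0.36 with an adjusted p of 0.0562, just outside the threshold. For the brightest probe, the call in large plaque was lost without small replicate 2 (difference 1.57, adjusted p = 0.0957), medium replicate 3 (1.63, 0.0535), large replicate 1 (1.57, 0.161) or large replicate 3 (1.51, 0.16), and also with the replicate number as a block (1.77, 0.0508) or with the small and large arteries alone in the fit (1.63, 0.118). The medium call held when any 1 artery was left out, for either probe.

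Of the receptors of BAFF, TNFRSF13C was not analysed here, and TNFRSF13B and TNFRSF17, found on B cells and plasma cells, did not pass the test. TNFRSF13B (TACI) was 0.56 ± 0.44 lower in medium and 0.78 ± 0.50 lower in large plaque than in small. TNFRSF17 (BCMA) differed by 0.04 ± 0.27 and -0.47 ± 0.31. Among 6 measured markers of B and plasma cells none passed either comparison with small. Their summed intensity ran from 14.2 to 19.0 in small, 18.7 to 36.3 in medium and 21.9 to 73.2 in large arteries. The markers did not move alike. JCHAIN differed from small by 1.90 ± 0.66 in medium and 2.88 ± 0.75 in large plaque, and MZB1 by 2.52 ± 0.88 and 2.36 ± 1.00. In large plaque MS4A1, CD79A, CD79B and POU2AF1 differed by between -0.23 and 0.14.

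TNFSF15 encodes TL1A, a ligand of endothelial and myeloid cells that costimulates T cells. Its brightest probe (295084) read 1.30, 0.31, 0.78 and 2.33 in small, 4.67, 3.31, 3.89, 5.68 and 4.34 in medium, and 3.48, 3.85 and 4.42 in large arteries. The lowest artery with medium plaque, at 3.31, still lay above the highest small one, at 2.33. The rise was 3.20 ± 0.48 in medium plaque, or 9.18-fold (limma adjusted p = 0.00467), and 2.74 ± 0.55 in large plaque, or 6.68-fold (adjusted p = 0.0368).

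The second TNFSF15 probe (364001) went the other way. Its values were 0.88, 2.05, 2.49 and 1.46 in small, 0.59, 1.25, 1.59, 1.60 and 1.49 in medium, and 0.42, 0.70 and 1.04 in large arteries, with overlap between all groups. It was 0.42 ± 0.32 lower in medium and 1.00 ± 0.36 lower in large plaque than in small (limma adjusted p = 0.53 and 0.204). Neither of these probes is annotated to a RefSeq transcript of TNFSF15, so which of them reads the gene's main transcript in the monkey was not tested. The large-plaque call of the first probe was lost without small replicate 2 (2.45, adjusted p = 0.095), small replicate 3 (2.61, 0.0773), medium replicate 5 (2.74, 0.0525) or large replicate 1, 2 or 3 (2.96, 0.11; 2.77, 0.0716; 2.49, 0.162), and also with the floor at the 1st percentile (2.74, 0.0512). Its medium call held when any 1 artery was left out.

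TNFRSF25 (DR3), the receptor of TL1A on lymphocytes, read -0.07, 0.38, 0.50 and 0.17 in small, 0.65, 0.14, 0.43, 0.12 and 0.50 in medium, and 0.64, 0.55 and 0.71 in large arteries. The 3 large arteries lay above all 4 small ones. The difference of 0.39 ± 0.19 did not pass the test (limma adjusted p = 0.35).

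TNFSF8 encodes the ligand of TNFRSF8 and lies next to TNFSF15 in the macaque assembly T2T-MFA8v1.1, with no coding gene between them. Its brightest probe (440025), which is not annotated to a RefSeq transcript, read 1.58, -0.01, 0.44 and 0.61 in small, 2.56, 1.61, 2.42, 3.05 and 2.84 in medium, and 2.21, 1.36 and 1.74 in large arteries. Medium and small arteries did not overlap, with medium replicate 2 and small replicate 1 nearly touching. Large arteries overlapped with both. The rise in medium plaque was 1.84 ± 0.35, or 3.58-fold (limma adjusted p = 0.0161); in large plaque the difference was 1.12 ± 0.40 (adjusted p = 0.195).

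The second TNFSF8 probe (233019), the one annotated to a RefSeq transcript, did not pass either test. It read -1.49, -1.65, -1.28 and -1.88 in small, -0.18, -0.89, 0.01, 0.08 and 0.07 in medium, and -2.14, -1.06 and -0.08 in large arteries. All medium arteries again lay above all small ones, and the large arteries spread over the whole range. The differences were 1.40 ± 0.35 in medium plaque (limma adjusted p = 0.0538) and 0.48 ± 0.40 in large plaque (adjusted p = 0.6). The medium call of the brightest probe was lost without small replicate 2 (1.62, adjusted p = 0.0512) and without small replicate 4 and medium replicate 5 together (1.74, 0.0779), animals whose identity numbers lie apart from the rest. The receptor TNFRSF8 differed from small by -0.04 ± 0.18 in medium and 0.00 ± 0.21 in large plaque, with 95% intervals of -0.44 to 0.36 and -0.45 to 0.46.

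TNFRSF21 is a death domain receptor without a ligand among the members. It had the largest rise of the 48 probes in both comparisons with small. Its brightest probe (53110) read 3.20, 2.08, 2.41 and 2.27 in small, 5.67, 5.43, 5.75, 6.41 and 6.13 in medium, and 5.72, 5.07 and 4.98 in large arteries. A gap of well over 1 log2 unit separated the small arteries from the rest. The rise was 3.39 ± 0.27 in medium plaque, or 10.5-fold (limma adjusted p = 0.000139), and 2.77 ± 0.31 in large plaque, or 6.8-fold (adjusted p = 0.0018). Both calls held when any 1 artery was left out, with rises from 3.25 to 3.62 and from 2.53 to 3.00.

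The second TNFRSF21 probe (109104) is annotated to the same RefSeq transcript and gave smaller differences. It read 0.70, 0.62, 0.67 and 1.16 in small, 1.35, 0.97, 1.13, 1.34 and 1.46 in medium, and 1.12, 0.86 and 1.17 in large arteries. Small replicate 4 overlapped with both other groups, while the other 3 small arteries lay below all of them. The differences were 0.46 ± 0.17 in medium and 0.26 ± 0.19 in large plaque (limma adjusted p = 0.167 and 0.539).

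**Figure D3:**
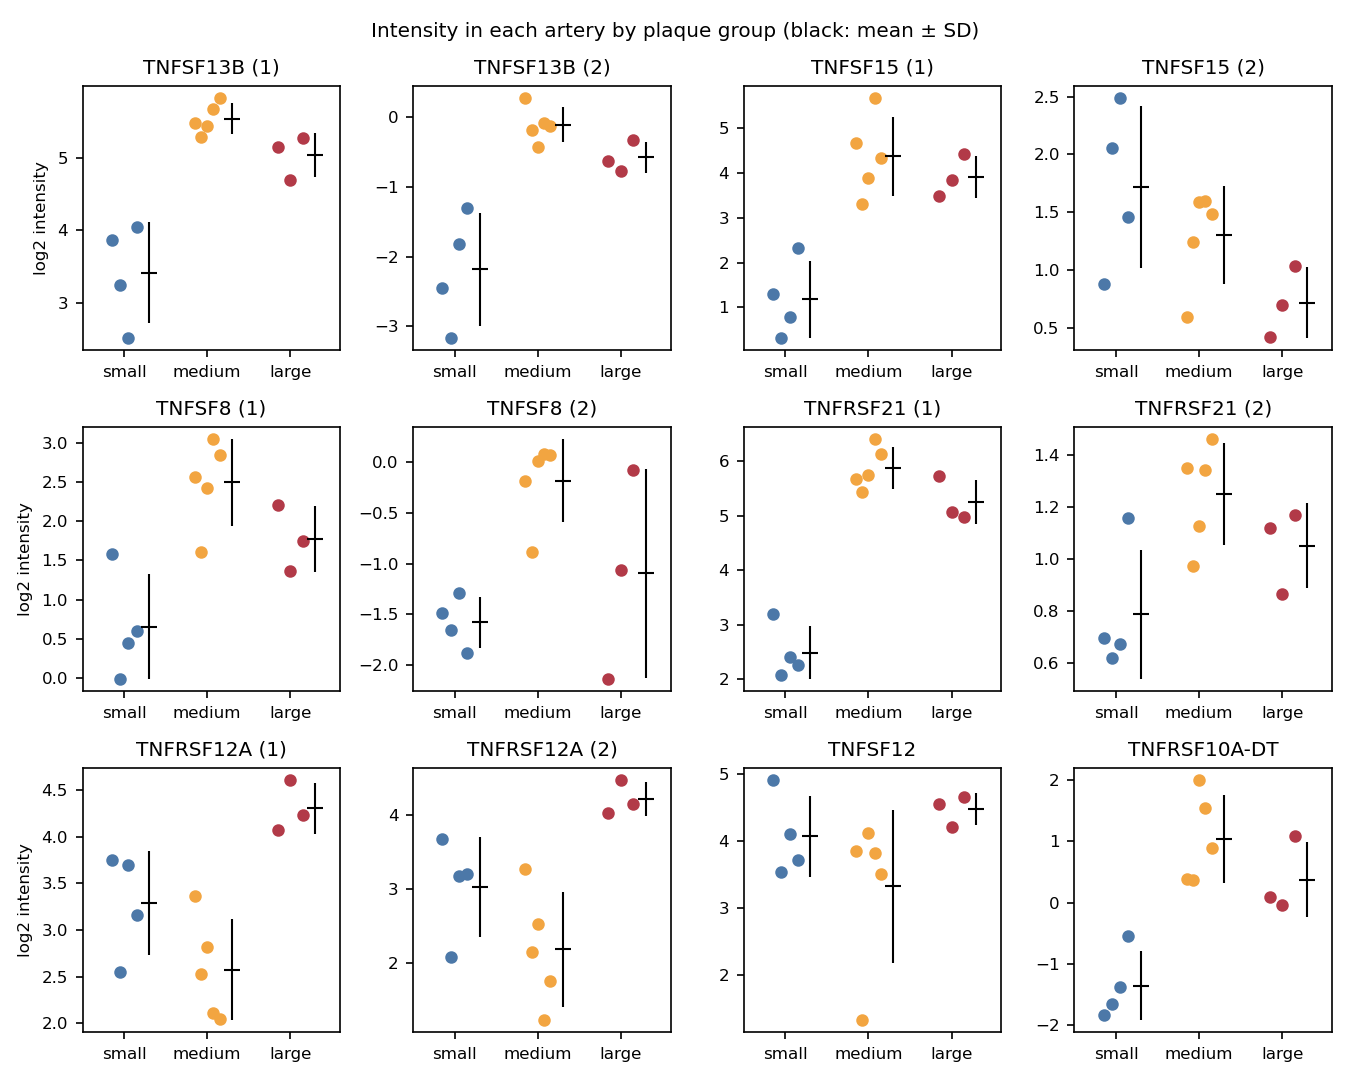
Log2 intensity of each artery (points) by plaque group for 12 probes, with the mean ± SD of each group in black; numbers in brackets are probes of 1 gene, brightest first, and each panel has its own vertical scale. In the first probes of TNFSF13B, TNFSF15 and TNFRSF21 no small artery reaches a medium or large one, and in both TNFRSF12A probes the 3 large arteries lie on top.

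TNFRSF10A-DT is a divergent transcript beside TNFRSF10A, the gene of a death receptor for TRAIL. Its probe (230077) read -1.84, -1.65, -1.37 and -0.55 in small, 0.39, 0.36, 2.00, 1.54 and 0.89 in medium, and 0.09, -0.04 and 1.08 in large arteries. No small artery reached any other. It rose by 2.39 ± 0.39 in medium plaque, or 5.24-fold (limma adjusted p = 0.00785), and differed by 1.73 ± 0.45 in large plaque (adjusted p = 0.0839).

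TNFRSF10A itself did not pass either test. Its probe read -1.37, -1.65, -1.10 and -2.96 in small, -1.90, -1.30, -1.59, -1.70 and -1.75 in medium, and -1.04, -2.14 and -1.73 in large arteries, all below the array median and overlapping. The differences from small were 0.12 ± 0.35 and 0.13 ± 0.39. The array's use of strand is not given in the sources used here, so how far the probe of TNFRSF10A-DT also reads other transcripts of the locus was not tested. TNFRSF14-AS1 was 0.09 ± 0.30 lower in medium and 0.58 ± 0.34 lower in large plaque (limma adjusted p = 0.912 and 0.446).

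Most markers of macrophages were also higher in medium and large plaque than in small. Of 11 measured macrophage markers 7 rose in medium and 6 in large plaque, among them TYROBP, LAPTM5, ITGAX, LYZ and CD163, while CD68, MARCO, MSR1 and MRC1 passed in neither comparison. CD68 differed from small by -0.44 in medium and -0.66 in large plaque and MARCO by -0.66 and -0.90, and for both every large artery lay below every small one. The summed intensity of the macrophage markers was 69.5 to 124 in small, 263 to 564 in medium and 290.4 to 434 in large arteries, so that no small artery overlapped with the others. Contractile smooth muscle markers moved the other way, with sums of 1649 to 2497 in small, 761 to 1384 in medium and 949 to 1596 in large arteries; 2 of 7 fell in medium and 1 in large plaque. T cell sums were 12.4 to 29.4, 26.1 to 46.3 and 21.8 to 35.5, and only GZMA of 8 markers passed, in medium plaque. The T cell markers did not move alike, with 5 above small in both comparisons. CD5, CD8A and TRAT1 differed from small by -0.31, -0.07 and -0.46 in medium and by -0.71, -0.31 and -0.80 in large plaque. No measured marker of these lists sat at the floor on all 12 arrays. The part of these cells in the rises of TNFSF13B, TNFSF15, TNFSF8, TNFRSF21 and TNFRSF10A-DT was not tested.

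TNF, the founding ligand and a product of activated macrophages, did not differ between groups beyond the spread of animals. It read 2.82, 2.72, 3.10 and 2.63 in small, 2.43, 2.41, 2.82, 2.89 and 2.64 in medium, and 2.66, 2.78 and 2.82 in large arteries. The groups overlapped throughout. The difference from small was -0.18 ± 0.16 in medium (95% interval -0.53 to 0.17) and -0.07 ± 0.18 in large plaque (-0.46 to 0.33). A rise of this signal above those upper limits was outside the intervals.

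The lymphotoxin genes sit beside TNF in the macaque assembly, in the order LTB, TNF, LTA, and encode ligands of lymphocytes. LTA was dim, with values of -2.54, -1.41, -2.43 and -1.74 in small, -2.0, -1.49, -1.78, -2.12 and -2.15 in medium, and -1.35, -1.58 and -1.75 in large arteries. LTB read 0.95, 0.07, 1.63 and 0.70, then 0.20, 0.82, 0.79, 0.09 and 0.56, then 0.66, 0.61 and 0.91. Neither passed: LTA differed by 0.12 ± 0.25 and 0.47 ± 0.28, and LTB by -0.35 ± 0.28 and -0.11 ± 0.32, in medium and large plaque.

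Of the receptors of TNF and LTA, TNFRSF1A is expressed by most cells and carries a death domain, while TNFRSF1B is found mainly on leukocytes and endothelium. TNFRSF1A read 0.47, 0.82, 1.02 and 0.42 in small, 0.57, 0.57, 0.68, 0.69 and 0.40 in medium, and 0.55, 0.69 and 0.76 in large arteries. It differed from small by -0.10 ± 0.16 and -0.02 ± 0.18, with 95% intervals of -0.45 to 0.25 and -0.41 to 0.38.

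TNFRSF1B read 0.43, 0.35, 0.23 and 1.11 in small, 1.68, 0.86, 1.11, 1.75 and 1.38 in medium, and 1.33, 0.80 and 1.69 in large arteries. Small replicate 4 overlapped with both other groups, and the remaining small arteries lay below all of them. The differences of 0.83 ± 0.26 in medium and 0.75 ± 0.29 in large plaque did not pass (limma adjusted p = 0.111 and 0.24).

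TNFRSF12A, the receptor of TWEAK that is induced by injury in smooth muscle and endothelium, had another order of groups. Its brightest probe (140084) read 3.75, 2.55, 3.69 and 3.16 in small, 3.37, 2.53, 2.81, 2.12 and 2.05 in medium, and 4.08, 4.61 and 4.23 in large arteries. All 3 large arteries lay above all 9 others, and the 3 lowest arteries were medium ones. Large exceeded medium by 1.73 ± 0.34, or 3.31-fold, with an unadjusted p of 0.000253 and a limma adjusted p of 0.529.

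A second probe of TNFRSF12A (354045), annotated to the same RefSeq transcript, read 3.68, 2.08, 3.18 and 3.21 in small, 3.27, 2.15, 2.53, 1.23 and 1.76 in medium, and 4.04, 4.48 and 4.15 in large arteries. The large arteries were again the highest 3. Its difference between large and medium was 2.04 ± 0.43, or 4.1-fold (unadjusted p = 0.000484, limma adjusted p = 0.621). Over 21 alternatives the difference between large and medium stayed between 1.48 and 1.93 for the brightest probe and between 1.78 and 2.31 for the other. Several of these, such as leaving out a small artery, cannot change that difference. Neither probe passed in any of them, with a lowest limma adjusted p of 0.186 and 0.219. Against small, large was 1.01 ± 0.35 and 1.19 ± 0.45 higher and medium 0.71 ± 0.31 and 0.85 ± 0.40 lower, none past the threshold. Both probes read the same transcript and are not independent evidence.

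TNFSF12 encodes TWEAK, the ligand of TNFRSF12A. It read 4.91, 3.54, 4.11 and 3.71 in small, 3.85, 1.32, 4.12, 3.82 and 3.50 in medium, and 4.55, 4.21 and 4.66 in large arteries. The large arteries lay above all medium ones, narrowly at the nearest pair, and medium replicate 2 lay far below the rest. The difference of 1.15 ± 0.55 did not pass (limma adjusted p = 0.962), and without medium replicate 2 it was 0.65.

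No probe of the whole array passed the comparison of large with medium plaque (0%), and so none of the 48 did. At an unadjusted p under 0.05, 5 of the 48 probes and 5.04% of all probes differed. Groups did not overlap for 3 members that were higher (both TNFRSF12A probes and TNFSF12) and 2 that were lower in large plaque (TNFSF13B by its brightest probe and TNFSF18), or 10.4% of members against 5.47% of all probes (2.53% higher and 2.93% lower). TNFSF18, the ligand of TNFRSF18 on T cells, read -1.64, -2.08, -1.13, -1.73 and -2.02 in medium and -3.13, -2.37 and -2.93 in large arteries, close to the floor. It differed by -1.09 ± 0.38 (limma adjusted p = 0.953).

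None of the genes of TRAIL and its receptors passed a test. TNFSF10, the gene of TRAIL, had both probes near the floor: the brightest read -2.34, -3.17, -1.99 and -1.20 in small, -2.55, -3.03, -1.40, -2.23 and -3.17 in medium, and -2.42, -2.31 and -2.95 in large arteries. Its differences from small were -0.30 ± 0.41 and -0.39 ± 0.47. The second probe had values from -3.17 to -2.06 over the 12 arteries and differed by 0.19 ± 0.25 and -0.32 ± 0.29.

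TNFRSF10B encodes another death receptor for TRAIL. Its brightest probe (132025) read 2.00, 1.86, 2.16 and 2.10 in small, 1.47, 1.58, 1.54, 1.39 and 1.58 in medium, and 1.49, 1.73 and 1.18 in large arteries, so that all 4 small arteries were the highest. The differences were -0.52 ± 0.15 in medium and -0.56 ± 0.17 in large plaque (limma adjusted p = 0.086 and 0.131). The second probe differed by -0.15 ± 0.27 and 0.26 ± 0.31. The decoy receptors TNFRSF10C and TNFRSF10D differed by -0.27 ± 0.18 and 0.55 ± 0.23 in medium plaque and by 0.01 ± 0.21 and 0.23 ± 0.26 in large plaque.

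TNFRSF11B encodes osteoprotegerin, a soluble decoy receptor for RANKL and TRAIL that smooth muscle of arteries makes. It read 1.91, 1.63, 1.90 and 1.13 in small, 2.34, 1.96, 1.71, 1.51 and 1.55 in medium, and 1.95, 1.58 and 2.22 in large arteries. The groups overlapped, with differences of 0.17 ± 0.23 and 0.27 ± 0.26. RANKL itself, TNFSF11, was near the floor at -2.81, -3.17, -3.17 and -2.59, then -2.56, -2.74, -2.37, -1.91 and -3.17, then -2.02, -2.98 and -2.02, and its receptor TNFRSF11A ran from -3.17 to -1.06 over all arteries. Neither passed a test, and at this signal a difference was not well measurable.

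FAS is the death receptor for Fas ligand. Its brightest probe read 0.79, 0.61, 0.72 and 0.51 in small, 0.19, 0.63, 1.20, 1.27 and 0.71 in medium, and -0.45, 0.36 and 0.60 in large arteries. Large differed from medium by -0.63 ± 0.28 and from small by -0.49 ± 0.29 (limma adjusted p = 0.962 and 0.455). The second FAS probe instead had its highest value in that artery, large replicate 1, at -0.84, and its lowest in large replicate 3, at the floor.

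CD40, a receptor of antigen-presenting cells, was dim and scattered. It read -1.50, -2.31, -2.17 and -2.47 in small, -0.33, -2.01, -3.17, -1.72 and -3.17 in medium, and -1.63, -2.41 and -3.17 in large arteries. The medium group thus held both the highest value and a pair at the floor. Differences were 0.03 ± 0.53 and -0.29 ± 0.61.

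TNFSF14 (LIGHT), a ligand of T cells and myeloid cells, read 3.53, 3.70, 3.88 and 3.28 in small, 3.74, 3.47, 3.91, 4.24 and 3.90 in medium, and 3.84, 3.67 and 3.85 in large arteries by its brightest probe. It differed by 0.25 ± 0.18 and 0.19 ± 0.21, and its dim second probe by -0.48 ± 0.35 and -0.25 ± 0.40. Its receptor TNFRSF14 had 2 dim probes of opposite sign in medium plaque, at -0.46 ± 0.32 and 0.86 ± 0.44. None of these passed the test.

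The remaining members were costimulatory pairs of T cells and orphan receptors. TNFSF4 differed from small by 0.06 ± 0.17 and 0.11 ± 0.19, and TNFSF9 by -0.27 ± 0.19 and -0.26 ± 0.21. TNFRSF9, the receptor of TNFSF9, had 3 probes that did not go together: in large plaque they differed by -0.54 ± 0.25, 0.23 ± 0.16 and 0.72 ± 0.52. TNFRSF18 differed by -0.17 ± 0.16 and -0.34 ± 0.18, and the orphan receptor TNFRSF19 by -0.04 ± 0.42 and -0.13 ± 0.48 in its brightest probe. No probe of these genes passed the test.

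Counted without a test, groups did not overlap for 9 of the 48 probes between medium and small plaque, 8 higher and 1 lower, or 18.8% against 8.28% of all probes (3.94% higher and 4.34% lower). Between large and small plaque this held for 8 higher and 2 lower, or 20.8% against 14.5% (5.99% higher and 8.52% lower). Those lower in large plaque were the brightest probes of TNFRSF10B and TNFRSF9, and the 1 lower in medium plaque was that of TNFRSF10B. At an unadjusted p under 0.05 there were 12 members in medium and 13 in large plaque against small, where all probes gave 18.3% and 16.1%.

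Against plaque area over all 12 arteries no member passed the test, while 0.583% of all probes did. An unadjusted p under 0.05 was reached by 12 of the 48 members and by 15.9% of all probes. TNFRSF21 had the steepest slope of the members by its brightest probe, at 3.70 ± 0.89 log2 units per mm2 (limma adjusted p = 0.0732). The brightest probe of TNFSF15 followed at 3.59 ± 0.99 (adjusted p = 0.103). Those of TNFSF13B and TNFSF8 had 2.20 ± 0.66 and 1.85 ± 0.65 (adjusted p = 0.127 and 0.185). The second TNFSF15 probe went the other way, at -1.17 ± 0.42 (limma adjusted p = 0.192). Second probes of TNFRSF21, TNFSF13B and TNFSF8 had slopes of 0.44 ± 0.25, 2.06 ± 0.69 and 0.73 ± 0.68.

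Within the 8 medium and large arteries the same members had slopes below 0 with wide errors. There, by brightest probe, TNFRSF21 had a slope of -0.50 ± 0.72, TNFSF13B of -0.46 ± 0.53, TNFSF15 of -0.17 ± 1.10 and TNFSF8 of -0.38 ± 0.88. Their second probes had -0.04 ± 0.39, -0.66 ± 0.49, -1.06 ± 0.61 and -1.68 ± 0.99, in the same order. No member passed, nor did any probe of the array (0%), and 4 members reached an unadjusted p under 0.05, where 5.50% of all probes did. These were TNFSF12 at 3.06 ± 1.10, TNFSF18 at -2.37 ± 0.56 and the TNFRSF12A probes at 2.65 ± 1.11 and 3.13 ± 1.37. With 8 arteries these standard errors leave slopes of either sign possible for the members named before them. The TNFSF12 slope includes medium replicate 2, which had the smallest area of the 8, at 0.3 mm2. Its TNFSF12 value of 1.32 lay far below the rest, and a slope without that artery is not given here.

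**Figure D4:**
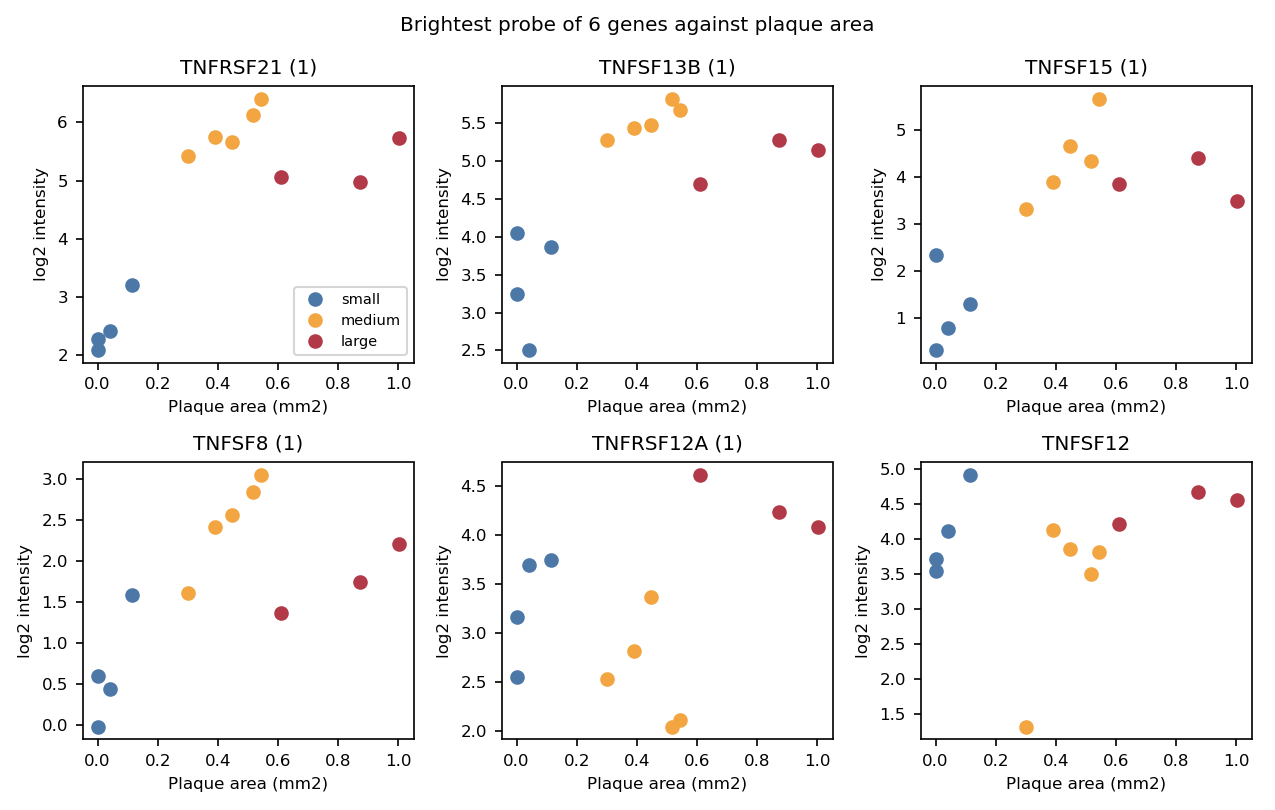
Log2 intensity of each artery (points, coloured by group) against plaque area in mm2 for the brightest probe of 6 genes, each panel with its own vertical scale. All 8 arteries of 0.3 mm2 or more lie above the small ones for TNFRSF21, TNFSF13B and TNFSF15 but not for TNFSF8; all 4 genes reach no higher in the large than in the medium arteries, while TNFRSF12A is highest in the 3 large arteries.

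The rest of the pathway was read from 5 lists of 66 genes, 59 of them measured and each taken by its brightest probe. In medium plaque 8 of the 59 rose and none fell, and in large plaque 5 rose and none fell, beside the 1.97% and 0.948% of all probes that rose. Those shares cover every tested probe, dim ones included. Shares over the brightest probe of each gene are not given here. Among 9 superfamily genes with other symbols only CD27, a receptor of lymphocytes, rose, by 1.66 ± 0.38 in medium plaque (limma adjusted p = 0.0352); it differed by 1.83 ± 0.43 in large plaque (adjusted p = 0.064). Its ligand CD70 differed by -0.20 ± 0.21 and -0.09 ± 0.24. Fas ligand (FASLG) differed by 0.41 ± 0.33 and 0.57 ± 0.37, and the lymphotoxin receptor LTBR by -0.21 ± 0.15 and -0.26 ± 0.17.

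None of 13 TRAF and adaptor genes passed; the smallest p-values belonged to TANK and TRAF4, which were 1.17 and 0.85 above small in large plaque (limma adjusted p = 0.126 and 0.0979). Of 9 death signalling genes BID, which links death receptors to mitochondria, rose by 1.78 ± 0.27 in medium and 1.57 ± 0.31 in large plaque (limma adjusted p = 0.00491 and 0.034). Of 12 NF-kappaB genes NFKBIE, an inhibitor of the pathway, rose by 1.39 ± 0.21 and 1.22 ± 0.24 (adjusted p = 0.0052 and 0.0366).

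Of 16 genes listed under TNF-induced genes and shedding, not all of which TNF induces, 5 rose in medium and 3 in large plaque. CXCL8, a neutrophil chemokine, rose by 3.81 ± 0.39 and 3.83 ± 0.45, SOD2, a mitochondrial superoxide dismutase, by 4.00 ± 0.39 and 3.82 ± 0.44, and CCL2, a monocyte chemokine, by 2.27 ± 0.22 and 1.51 ± 0.25. ADAM17, the protease that sheds TNF, rose by 1.59 ± 0.36 in medium plaque (limma adjusted p = 0.0367), as did IER3 by 1.04 ± 0.24 (adjusted p = 0.0371). In large plaque ADAM17 and IER3 differed by 1.39 ± 0.41 and 1.05 ± 0.27 without passing. Other signals also induce these genes, and the macrophage marker sums above were likewise higher in medium and large arteries than in small.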

How the data were processed

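Per the labels' protocols, total RNA of each iliac artery was amplified to biotinylated cRNA, hybridized to a one-colour human CodeLink array and stained with a fluorescent dye. The deposited values are linear probe intensities, scaled by the authors so that each array's median is close to 1, as the values show; how the image was read, the background taken off and the scaling done is not given in the sources used here. Intensities were raised to at least 0.111, the 5th percentile of the positive values, and converted to log2. A probe was tested if 2 or more animals of every group had a value (53877 of 54359). Tests used limma (version 3.58.1, under R 4.3.3) with 3 group means over 12 arrays, or with plaque area as the predictor. The p-values are two-sided, with Benjamini-Hochberg adjustment across the tested probes and a threshold of 0.05; ± marks the SE of the fit. Procedures were tested on simulated data.

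Gene names follow GEO's annotation of the platform and may be outdated; the symbols of all 33 ligand and receptor genes are in the macaque assembly T2T-MFA8v1.1, used for names and neighbours only. Any member could be named. Arrays are listed one by one for members that passed a test and for a fixed set of well-known members. TNFRSF25, TNFRSF10A, TNFRSF10B and TNFSF18 belong to neither and were listed in addition. Called genes or those of smallest p are named from each pathway list, with CD70, FASLG and LTBR added outside that rule. Members, lists and tests were chosen with earlier results of these data known. Alternatives covered normalization, the floor, a filter on dim probes, the variance model, array weights, animals left out, a replicate block, 1 probe per gene, 2 groups only and ranked area. Precision is limited by the number of arrays.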

Additional observations from a re-analysis of the deposited data

Results flagged for a closer look

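All probes of the members that passed a test and of the fixed set of well-known members were examined. The listed probes of TNFRSF25, TNFRSF10A, TNFRSF10B and TNFSF18 were not. Among 52 small and medium groups of these 26 examined probes, 3 held an artery far from the others of its group. This was by Dixon's criterion at its 95% critical value, where chance alone gives about 1 in 20 groups. For TNFSF12, medium replicate 2 was lowest at 1.317, where the other medium arteries lay between 3.503 and 4.12. For the second TNFSF8 probe, the same artery was lowest at -0.8898, where the others lay between -0.1813 and 0.07998. For the second TNFRSF21 probe, small replicate 4 was highest at 1.158, where the other small arteries lay between 0.6199 and 0.6963. The large group of 3 was too small for this criterion.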

How the results depend on the processing

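No member that passed a test changed direction in any alternative. The members called in medium against small numbered 5 to 7 when 1 artery was left out, and in large against small 1 to 4; without small replicate 2, large replicate 1 or large replicate 3 only TNFRSF21 was called. Large against medium gave 0 called members in each such fit, the slope over 12 arteries 0 to 1 and the slope within medium and large 0. On bright probes only, 5 members passed in large against small (TNFRSF10A-DT, TNFRSF10B, TNFRSF21, TNFSF13B and TNFSF15) and 2 in the slope (TNFRSF10B and TNFRSF21, the latter at 3.70 with an adjusted p of 0.0388), where fewer probes were tested. Counts over all probes moved more. In large against small, 617 became 1397 on bright probes only, 1161 with a variance trend, 1338 with array weights, 316 without the animals with identity numbers apart, 379 with only those groups fitted, and 112 to 1216 with 1 artery left out. In medium against small, 1693 became 773 without those animals, 866 with the replicate block and 847 to 1568 with 1 artery left out. Large against medium went from 0 to 1 with quantile normalization, 3 with array weights, 4 with only those groups fitted and 0 to 3 with 1 artery left out. The slope count of 314 became 174 and 509 with the floor at the 1st and 10th percentile, 1121 on bright probes, 777 with the trend, 0 without those animals, 0 with the replicate block and 0 to 746 with 1 artery left out. Pathway genes called in large against small went from 5 to 2 without those animals, 3 with only those groups fitted and 2 to 8 with 1 artery left out; in medium against small from 8 to 5 under both of the former and 5 to 9. In the slope they went from 1 to 0 (floor at the 1st percentile, array weights, those animals left out, replicate block), 2 (floor at the 10th percentile, ranked area), 6 (bright probes), 4 (trend) and 0 to 4 with 1 artery left out. The cause of these changes was not tested.

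The correlation of deviations between same-numbered animals was -0.16 for replicate 4 of medium and small. For replicates 1 to 3 it was above 0 in every pair, from 0.019 to 0.22. Animals with different numbers were not compared, so these values cannot show whether the numbers mark a pairing. The main fits took the numbers as names only. With the replicate block 3 members passed in large against small (TNFRSF21, TNFSF15 and TNFRSF10A-DT) and 6 in medium against small. Dim probes limit what can be said of TNFSF10, TNFSF11, TNFRSF11A, LTA and CD40.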
